A study of Mus musculus with 6 samples.

Results

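The transcripts described here are those of 10 enzymes of sphingolipid metabolism: the sphingomyelinases Smpd1, Smpd2, Smpd3 and Smpd4, the sphingomyelin synthases Sgms1 and Sgms2, the ceramidases Asah1 and Asah2, and the sphingosine kinases Sphk1 and Sphk2. They were found by gene name among the 55860 genes of the deposited tables of read counts and FPKM, and all 10 had a row. FPKM are reads scaled by gene length and a factor per library. Smpd3 was chosen by its fall between the genotypes, the strongest among well-expressed genes, so its values are a description and carry no test. The other 9 were chosen as enzymes of the same pathway. RNA came from mouse ovarian granulosa cells, the somatic cells that surround and nourish the oocyte, of Il22r-/- mice (3 libraries) and Il22r+/+ mice (3 libraries). Il22r is the label's name for the disrupted receptor gene of interleukin-22, and the sources used here do not state the strain, the age, the deleted exon or whether animals were pooled. All 6 libraries came from cells separated on a density gradient and kept for 12 h in medium with 10% serum before lysis, and the labels name no treatment.

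Sphingomyelinases cut the membrane lipid sphingomyelin into ceramide and phosphocholine, and sphingomyelin synthases put phosphocholine back onto ceramide. Ceramidases release sphingosine from ceramide, and sphingosine kinases turn it into sphingosine 1-phosphate, a lipid that leaves the cell and acts on G protein-coupled receptors. In the ovary ceramide is known as a death signal and sphingosine 1-phosphate as a survival signal for the oocyte and its granulosa cells.

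Counted reads per library came to between 14.95 M and 18.12 M for Il22r-/-, against 17.43 M to 17.7 M for Il22r+/+. Il22ra1 (ENSMUSG00000037157), the ligand-binding receptor chain and taken here as the labelled one, was counted 5, 2 and 0 times in Il22r-/- and 1, 5 and 4 times in Il22r+/+ (replicates 1 to 3), too few to check the genotype labels. Among granulosa markers was Inha, the inhibin alpha subunit, at 2605 ± 116 CPM in Il22r-/- and 3202 ± 429 CPM in Il22r+/+ (CPM, read counts scaled to a common library size with TMM factors; mean ± SD, n = 3 each). Foxl2, the granulosa transcription factor, stood at 138 ± 32.0 CPM in Il22r-/- and 191 ± 13.3 CPM in Il22r+/+. Of 12 tested granulosa markers 4 rose and 3 fell, beside 23.6% and 22.1% of all tested genes. The risers were Fshr, the follicle-stimulating hormone receptor gene (22.7-fold, 5.99 ± 1.10 CPM in Il22r-/- and 0.257 ± 0.183 CPM in Il22r+/+), Amhr2 (2.77-fold), Inhba (1.62-fold) and Esr2 (1.23-fold), and those that fell were Gata4 (2.12-fold), Nr5a1 (1.45-fold) and Foxl2 (1.39-fold). The aromatase gene Cyp19a1, a marker of preovulatory granulosa cells, was near 0 in both, at 0.0219 ± 0.0379 CPM in Il22r-/- and 0.709 ± 0.683 CPM in Il22r+/+. Il22r-/- replicate 3 was the shallowest library and differed most from its fellow replicates, with a chi-square statistic per gene of 21.9 and 27.3, against 10.2 for the other Il22r-/- pair and 4.76 to 6.77 for the Il22r+/+ pairs. By the edgeR quasi-likelihood test with Benjamini-Hochberg adjustment over all 15227 tested genes, 45.7% of genes passed an adjusted p of 0.05, 23.6% higher and 22.1% lower in Il22r-/-. Of these calls 51.6% were higher, and 63.6% of calls were higher with library size as the only scaling. The 3 and 3 CPM values did not overlap for 56.0% of tested genes.

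Smpd3 (ENSMUSG00000031906) encodes neutral sphingomyelinase 2, which makes ceramide at the plasma membrane and Golgi and is known for its part in exosome release and, in mice, in skeletal growth. The gene lies on mm10 chromosome 8, 106252548 to 106337988, minus strand. Its reads numbered 38, 16 and 20 in the Il22r-/- libraries (replicates 1 to 3), against 5242, 4364 and 4603 in the Il22r+/+ libraries. In CPM this was 2.00, 0.854 and 1.31 in Il22r-/-, against 306.6, 260.4 and 272.6 in Il22r+/+. The genotypes were far apart in every library: the lowest Il22r+/+ value was 130.5 times the highest Il22r-/- value. Within a genotype the libraries spanned 2.34-fold in Il22r-/- and 1.18-fold in Il22r+/+. The fitted log2 difference was -7.64 ± 0.19 (SE), 199.7-fold lower in Il22r-/-, and it lay between -8.04 and -7.38 when each library was left out in turn. By size of fall it ranked 1 among the 11077 tested genes averaging 5 CPM or more, and 4 among all 15227.

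Per length, in deposited FPKM, Smpd3 stood at 0.267 ± 0.109 in Il22r-/- and 55.0 ± 4.75 in Il22r+/+ (SD, n = 3 each). It exceeded 5.88% of tested genes in Il22r-/- and 94.2% in Il22r+/+, so that the transcript was among the scarce ones in the first genotype and among the abundant ones in the second. In bulk RNA, fewer cells of a type and less RNA per cell cannot be told apart. Prmt7, an arginine methyltransferase gene on the other strand, shares 247 bases with the 3' end of Smpd3, or 4.72% of the exon length of Smpd3. The strand setting of the counting is not stated, so reads of Smpd3 and Prmt7 cannot be told apart in those bases. Prmt7 stood at 40.2 ± 2.57 CPM in Il22r-/- and 30.2 ± 2.17 CPM in Il22r+/+.

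**Figure D1:**
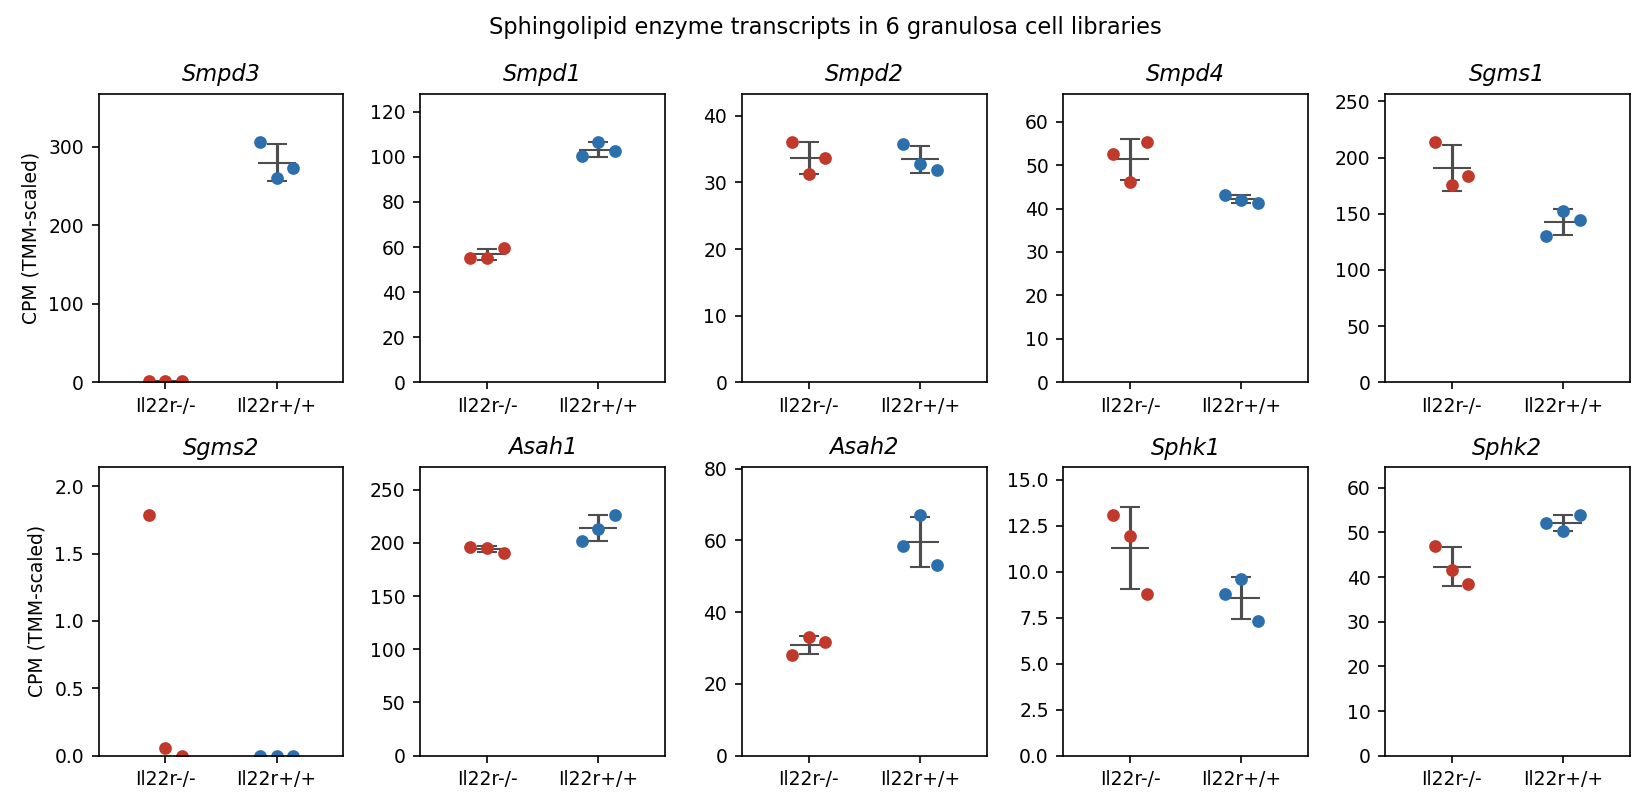
CPM of the 10 enzymes in each library (points), with the mean and SD of 3 libraries (bars, left out for Sgms2), Il22r-/- left and Il22r+/+ right; each panel has its own linear axis from 0. Smpd3 is at 0.854 to 2.00 CPM in Il22r-/- and 260.4 to 306.6 CPM in Il22r+/+, while no other tested enzyme differs by as much as 2-fold.

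Among the 8 tested enzymes other than Smpd3, 3 fell (Smpd1, Asah2 and Sphk2), 2 rose (Sgms1 and Smpd4) and 3 did not pass (Smpd2, Asah1 and Sphk1). These 5 calls of 8 stand beside 45.7% of all tested genes, and their median log2 difference was -0.06 beside 0.03 over all tested genes. The groups did not overlap in 6 of the 8, beside 56.0% of all tested genes. Sgms2 had too few reads to pass the filter on low counts and was not tested in this fit. All were small changes next to that of Smpd3: the largest was a 1.93-fold fall.

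Smpd1 (ENSMUSG00000037049, chromosome 7, 105554360 to 105558389, plus strand) encodes acid sphingomyelinase, the lysosomal enzyme. It had 55.3, 55.3 and 59.6 CPM in Il22r-/- replicates 1 to 3, against 100.4, 106.8 and 102.6 CPM in Il22r+/+. All 3 Il22r-/- libraries lay below all 3 Il22r+/+ libraries, and the replicates of each genotype lay close together. The log2 difference was -0.86 ± 0.07 (SE; edgeR quasi-likelihood adjusted p = 6.48e-06), a 1.82-fold fall that held in all 15 alternatives.

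Of the other sphingomyelinases, neither passed the test as lower. Smpd2 (ENSMUSG00000019822), neutral sphingomyelinase 1, stood at 36.1, 31.2 and 33.7 CPM in Il22r-/- and 35.8, 32.7 and 31.9 CPM in Il22r+/+. The values overlapped, with a log2 difference of 0.01 ± 0.09 (adjusted p = 0.946), and 20.3% of its exon length is shared with Mical1 on the other strand. Smpd4 (ENSMUSG00000005899), an enzyme of the endoplasmic reticulum and nuclear envelope, had 52.5, 46.2 and 55.4 CPM in Il22r-/- and 43.2, 41.9 and 41.4 CPM in Il22r+/+. Its Il22r-/- values all lay above its Il22r+/+ values, a 1.22-fold rise (log2 difference 0.28 ± 0.09, adjusted p = 0.0213). The call was lost without Il22r-/- replicate 1 (adjusted p = 0.0621), without Il22r+/+ replicate 1, 2 or 3 (0.0611, 0.0723 and 0.0816) with the DESeq2 Wald test (0.0607) and in all 3 limma fits on FPKM (0.0646 to 0.0878). Over the 15 alternatives the adjusted p ran between 0.00396 and 0.0878.

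Per length, the makeup of the sphingomyelinase transcripts changed with the near absence of Smpd3. The summed FPKM of the 4 genes was 30.9, 29.1 and 32.4 in Il22r-/- replicates 1 to 3, against 104.3, 96.1 and 97.3 in Il22r+/+ replicates 1 to 3. Smpd3 made up 0.864 ± 0.341% of that sum in Il22r-/- and 55.3 ± 2.33% in Il22r+/+. Smpd1 made up 55.8 ± 1.91% in Il22r-/- and 32.1 ± 2.28% in Il22r+/+, although its own level was lower in Il22r-/-. Without Smpd3 the sum of the other 3 genes was 30.5 ± 1.61 FPKM in Il22r-/- and 44.3 ± 0.709 FPKM in Il22r+/+. These shares contain the Smpd3 values that chose the family and carry no test, and they count transcripts, not enzyme activity.

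**Figure D2:**
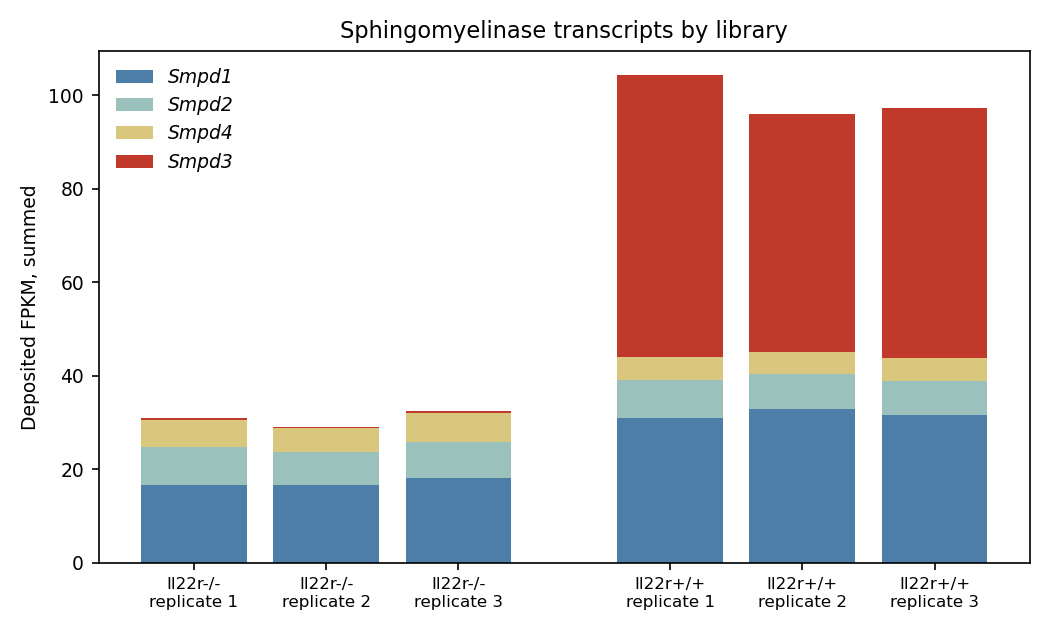
Deposited FPKM of the 4 sphingomyelinase genes, stacked for each library, the 3 Il22r-/- libraries left and the 3 Il22r+/+ libraries right. The bars reach 29.1 to 32.4 in Il22r-/- and 96.1 to 104.3 in Il22r+/+, and Smpd3 fills 0.566% to 1.24% of a bar in Il22r-/- and 53.1% to 57.7% in Il22r+/+.

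Sgms1 (ENSMUSG00000040451, chromosome 19, 32122727 to 32389714, minus strand), the sphingomyelin synthase of the Golgi, was the largest rise among the tested enzymes. It had 214.1, 175.5 and 183.2 CPM in Il22r-/- replicates 1 to 3, against 130.3, 152.8 and 144.8 CPM in Il22r+/+. The genotypes did not overlap, and the log2 difference was 0.42 ± 0.10 (adjusted p = 0.00447), a 1.34-fold rise that held in all 15 alternatives. The FPKM of Sgms1 divided by that of Smpd1 was 1.07 ± 0.138 in Il22r-/- and 0.437 ± 0.0227 in Il22r+/+ (SD, n = 3 each). The transcript of the enzyme that makes sphingomyelin was thus level with that of the acid enzyme that cleaves it in Il22r-/-, and below it in Il22r+/+.

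Sgms2 (ENSMUSG00000050931), the plasma membrane synthase, was hardly seen. Reads numbered 34, 1 and 0 in the Il22r-/- libraries (replicates 1 to 3), and no Il22r+/+ library had any. A count of 0 allows up to 3 reads per library, counting error only. The gene did not pass the filter on low counts, and 34 of its 35 reads lay in a single library. With no filter Sgms2 was called higher on those reads, which made 6 enzymes called other than Smpd3.

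Asah2 (ENSMUSG00000024887, chromosome 19, 31982597 to 32108211, minus strand) encodes neutral ceramidase, which works at the plasma membrane. It had 28.2, 33.0 and 31.7 CPM in Il22r-/- replicates 1 to 3, against 58.5, 67.1 and 53.3 CPM in Il22r+/+. The genotypes did not overlap, and the log2 difference was -0.95 ± 0.10 (adjusted p = 4.68e-05), a 1.93-fold fall that held in all 15 alternatives. Asah2 and Sgms1 are neighbours, 14.5 kb apart on the same strand of chromosome 19, and they moved in opposite directions.

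Asah1 (ENSMUSG00000031591), the acid ceramidase of the lysosome, was the most abundant of the 10 per length in both genotypes. Its level was 195.9, 195.5 and 190.8 CPM in Il22r-/- and 201.9, 213.0 and 226.1 CPM in Il22r+/+. Every Il22r-/- value lay below every Il22r+/+ value, but by little, and the log2 difference of -0.14 ± 0.07 did not pass (adjusted p = 0.15). The FPKM of Asah1 divided by that of Asah2 was 21.6 ± 1.94 in Il22r-/- and 12.4 ± 1.90 in Il22r+/+.

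Of the sphingosine kinases, Sphk2 fell and Sphk1 did not pass the test. Sphk2 (ENSMUSG00000057342), the nuclear and mitochondrial kinase, had 47.1, 41.7 and 38.4 CPM in Il22r-/- and 52.2, 50.2 and 53.9 CPM in Il22r+/+. It fell 1.23-fold without overlap (log2 difference -0.30 ± 0.09, adjusted p = 0.0206). The call was lost without Il22r+/+ replicate 1 or 3 (adjusted p = 0.0654 and 0.0773) and with library size as the only scaling (0.121), and the lowest adjusted p among the alternatives was 0.00565. On the other strand Dbp covers 13.0% and Rpl18 8.97% of the Sphk2 exon length, and both changed, the circadian output gene Dbp by a log2 difference of -0.92 and the ribosomal protein gene Rpl18 by 0.60.

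Sphk1 (ENSMUSG00000061878), the cytosolic kinase that many growth signals induce, had 13.1, 12.0 and 8.80 CPM in Il22r-/- and 8.77, 9.61 and 7.34 CPM in Il22r+/+. Il22r-/- replicate 3 fell among the Il22r+/+ values, and the log2 difference of 0.40 ± 0.18 did not pass (adjusted p = 0.0915). It passed without that library (0.53, adjusted p = 0.0118) and with library size as the only scaling (0.50, adjusted p = 0.0429), and the highest adjusted p among the alternatives was 0.282. Per length, Sphk2 exceeded Sphk1 4.38 ± 0.544 times in Il22r-/- and 7.09 ± 1.23 times in Il22r+/+.

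**Figure D3:**
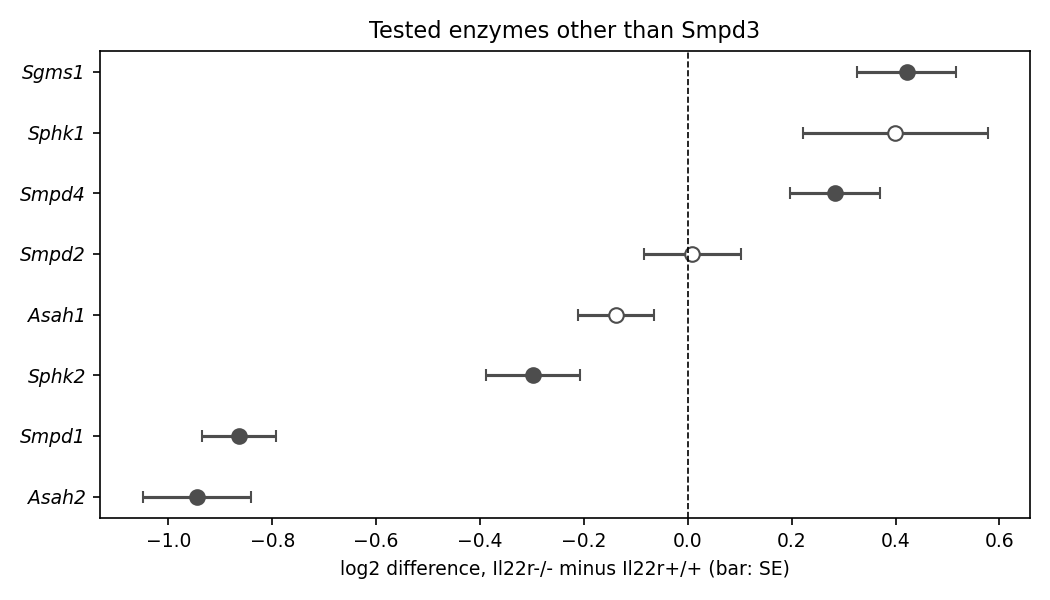
Fitted log2 difference, Il22r-/- minus Il22r+/+, with its SE (bars) for the 8 tested enzymes other than Smpd3; filled points passed the edgeR quasi-likelihood test at an adjusted p of 0.05 and open points did not. The values run from -0.95 for Asah2 to 0.42 for Sgms1, on an axis that Smpd3, at -7.64, would leave far to the left.

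By mean FPKM, Smpd3 was next to last of the 10 in Il22r-/- and next to first in Il22r+/+. In Il22r-/- the order ran Asah1 (57.8), Sgms1 (18.3), Smpd1 (17.2), Sphk2 (10.3), Smpd2 (7.61), Smpd4 (5.74), Asah2 (2.69), Sphk1 (2.38), Smpd3 (0.267) and Sgms2 (0.0985). In Il22r+/+ it ran Asah1 (64.8), Smpd3 (55.0), Smpd1 (31.8), Sgms1 (13.9), Sphk2 (12.9), Smpd2 (7.70), Asah2 (5.26), Smpd4 (4.80), Sphk1 (1.85) and Sgms2, listed at 0. The ranges of neighbours overlapped for Sgms1 with Smpd1, Asah2 with Sphk1 and Smpd3 with Sgms2 in Il22r-/-, and for Sgms1 with Sphk2 and Asah2 with Smpd4 in Il22r+/+. The ranges of all other neighbours were apart.

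Promoter sequence was at hand for 8 of the 10 enzymes, matched by symbol in RefSeq (GRCm38.p6, the same assembly as mm10), and not for Smpd3 and Asah1. The 250 bases before the annotated start are shown for the 2 enzymes with the largest falls after Smpd3, each with a single start in that table, to set the 2 promoters side by side. Capitals mark matches to the STAT-type motif TTCNNNGAA, which reads the same on both strands, and to the GC box GGGCGG or its reverse CCGCCC. A STAT-type match cannot overlap a GC box, but GC boxes can overlap each other. They are letter matches and show no binding.
Smpd1, chr7:105554110-105554359, plus strand: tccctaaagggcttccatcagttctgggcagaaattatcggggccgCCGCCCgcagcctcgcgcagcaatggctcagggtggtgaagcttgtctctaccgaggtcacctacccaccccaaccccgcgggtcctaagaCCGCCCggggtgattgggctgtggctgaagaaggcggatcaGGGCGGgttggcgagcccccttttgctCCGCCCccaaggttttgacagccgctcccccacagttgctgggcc
Asah2, chr19:32103141-32103390, minus strand: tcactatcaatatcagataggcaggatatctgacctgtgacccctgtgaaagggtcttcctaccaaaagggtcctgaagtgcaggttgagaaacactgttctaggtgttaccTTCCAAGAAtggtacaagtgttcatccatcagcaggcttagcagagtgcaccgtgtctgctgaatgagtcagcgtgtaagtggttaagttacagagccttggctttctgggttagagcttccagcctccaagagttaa
The Smpd1 window had 4 GC boxes, 16 CpG dinucleotides and 64.8% G and C, and the Asah2 window had no GC box, 2 CpG dinucleotides and 47.2% G and C. Asah2 held 1 match to the STAT-type motif and Smpd1 held none. Over all 32851 RefSeq promoter windows of that length, 7.02% held the STAT-type motif and 32.7% a GC box, with a median of 6 CpG dinucleotides. Of the 21 windows of the 8 enzymes, of which 2 pairs of Sphk1 windows overlap, 4 held the STAT-type motif and 8 a GC box. In 1 of these overlapping pairs both windows hold the same STAT-type site, which is thus counted in each. The RefSeq start of Asah2 lies inside the gene as the count table bounds it, so other starts may be used.

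In the wider sphingolipid pathway more genes passed the test as lower than as higher. Of 62 listed genes other than the 10 enzymes 53 were tested, and 21 fell, 7 rose and 25 did not pass, beside 22.1% lower and 23.6% higher among all tested genes. The median log2 difference was -0.20, beside 0.03 over all tested genes. With library size as the only scaling, which moved the median of all genes by 0.103, 19 fell and 8 rose. Under that scaling 2630 of all 15227 tested genes were called lower and 4595 higher.

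De novo synthesis builds ceramide from serine and palmitoyl-CoA in the endoplasmic reticulum. Of 14 tested genes 8 fell and 1 rose, where 22.1% of all tested genes fell and 23.6% rose. The ceramide synthase gene Cers4 was at 21.4 ± 0.558 CPM in Il22r-/- and 36.9 ± 1.86 CPM in Il22r+/+ (log2 difference -0.79 ± 0.09, adjusted p = 5.59e-05), and the dihydroceramide desaturase Degs1 fell 1.40-fold. Ormdl3, which restrains the first enzyme of the pathway, was at 187 ± 32.5 CPM in Il22r-/- and 280.5 ± 15.3 CPM in Il22r+/+ (-0.58 ± 0.12, adjusted p = 0.00275). Cers1 fell 1.72-fold (adjusted p = 0.0249), with 42.5% of its exon length shared on the same strand with Gdf1, and its call was lost without any 1 of the libraries other than Il22r-/- replicate 3 (adjusted p = 0.0657 and 0.0843 without Il22r-/- replicates 1 and 2, and 0.0527, 0.0794 and 0.0593 without Il22r+/+ replicates 1, 2 and 3). The riser, chosen after its values were seen, was Sptssa, a small subunit of serine palmitoyltransferase, at 50.5 ± 3.44 CPM in Il22r-/- and 36.8 ± 1.44 CPM in Il22r+/+.

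Genes that handle ceramide and sphingomyelin outside the 10 enzymes were 2 higher and 2 lower of 11 tested, no larger shares than the 23.6% and 22.1% of all tested genes. Cerk, the ceramide kinase that makes ceramide 1-phosphate, was at 43.9 ± 1.36 CPM in Il22r-/- and 92.7 ± 7.20 CPM in Il22r+/+, a 2.11-fold fall (log2 difference -1.08 ± 0.08, adjusted p = 3.33e-06). Smpdl3b, a membrane-anchored relative of acid sphingomyelinase, was at 42.1 ± 3.45 CPM in Il22r-/- and 14.1 ± 0.13 CPM in Il22r+/+, a 2.98-fold rise (1.58 ± 0.10, adjusted p = 1.14e-06). Smpd1 and its relative thus moved in opposite directions. The alkaline ceramidase Acer2, with 30, 40 and 25 reads in Il22r-/- and 7, 14 and 18 reads in Il22r+/+, rose 2.31-fold (adjusted p = 0.0252), and the transfer protein gene Cptp fell 1.39-fold (0.016). Acer2 lost its call without Il22r-/- replicate 2 or Il22r+/+ replicate 1 or 2 (adjusted p = 0.0967, 0.0926 and 0.0618), with the DESeq2 Wald test (0.0552) and in limma on log2(FPKM + 1), filtered or not (0.0787 and 0.0664). Cptp lost its call without Il22r-/- replicate 2 or Il22r+/+ replicate 1 or 3 (adjusted p = 0.06, 0.0703 and 0.0514) and in limma on unfiltered log2(FPKM + 1) (0.0518).

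Glycosphingolipids start from glucosylceramide, to which galactose is added to give lactosylceramide, the stem of gangliosides. Of 16 tested genes 7 fell and 1 rose (all tested genes, 22.1% and 23.6%). B4galt6, a lactosylceramide synthase, was at 4.96 ± 0.69 CPM in Il22r-/- and 22.3 ± 0.66 CPM in Il22r+/+, a 4.49-fold fall (log2 difference -2.17 ± 0.14, adjusted p = 1.21e-06). Its companion enzyme B4galt5 fell 1.57-fold, to 28.7 ± 3.91 CPM in Il22r-/- against 45.2 ± 2.69 CPM in Il22r+/+. B4galnt1, which makes the complex gangliosides, was at 19.2 ± 2.29 CPM in Il22r-/- and 54.2 ± 3.94 CPM in Il22r+/+, a 2.83-fold fall, and shares 20.7% of its exon length with Slc26a10 on the other strand. Slc26a10 itself had 34 reads in Il22r-/- and 127 reads in Il22r+/+. The lysosomal sulphatase Arsa fell 1.51-fold, with 18.8% of its exons shared with the noncoding gene C230037L18Rik on the other strand. The riser, chosen after its values were seen, was St3gal5, the GM3 synthase, at 447.1 ± 29.1 CPM in Il22r-/- and 368.4 ± 8.67 CPM in Il22r+/+.

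Sphingosine 1-phosphate is broken down by a lyase and by phosphatases and leaves cells through transporters. Of 9 tested genes of this group 3 fell and 1 rose (all tested genes, 22.1% and 23.6%). Sgpl1, the lyase that ends the pathway, was at 236.5 ± 11.5 CPM in Il22r-/- and 405.6 ± 13.4 CPM in Il22r+/+, a 1.71-fold fall (log2 difference -0.78 ± 0.08, adjusted p = 2.39e-05). Plpp3, a phosphatase of extracellular lipid phosphates, fell 1.52-fold to 75.6 ± 1.69 CPM in Il22r-/- against 114.6 ± 6.35 CPM in Il22r+/+. Aldh3a2, the fatty aldehyde dehydrogenase that takes up the product of the lyase, fell 1.28-fold. The exporter gene Spns2 had 60, 22 and 25 reads in Il22r-/- and 16, 16 and 6 reads in Il22r+/+ (log2 difference 1.41 ± 0.48, adjusted p = 0.0333). That call rests on Il22r-/- replicate 1 (0.89, adjusted p = 0.176 without it) and was also lost without Il22r+/+ replicate 1, 2 or 3 (adjusted p = 0.0653, 0.0575 and 0.122) and in all 3 limma fits on FPKM (0.0743 to 0.183).

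Of the 5 receptor genes of sphingosine 1-phosphate, S1pr1, S1pr2 and S1pr3 had enough reads for a test, and all 3 passed, beside 45.7% of all tested genes. S1pr2 was at 48.8 ± 3.77 CPM in Il22r-/- and 60.0 ± 0.281 CPM in Il22r+/+, a 1.23-fold fall (log2 difference -0.30 ± 0.08, adjusted p = 0.0103) that was lost with library size as the only scaling (adjusted p = 0.0537; 0.000302 at the lowest among the alternatives). S1pr1 and S1pr3 rose, on few reads. S1pr1 had 22, 36 and 20 reads in Il22r-/- and 10, 10 and 13 reads in Il22r+/+ (1.16 ± 0.36, adjusted p = 0.0237), and S1pr3 had 12, 38 and 13 reads in Il22r-/- and 3, 1 and 5 reads in Il22r+/+ (2.68 ± 0.65, adjusted p = 0.00683). Without Il22r-/- replicate 2, S1pr3 had a log2 difference of 2.00 (adjusted p = 0.0399) and S1pr1 lost its call (0.126), as it did without Il22r+/+ replicate 1 or 2 (0.0839 and 0.0753), with the DESeq2 Wald test (0.0825) and in limma on unfiltered log2(FPKM + 1) (0.0518). S1pr3 lost its call in limma on log2(FPKM + 1), filtered (log2 difference 0.27, adjusted p = 0.0682) or not (0.132). The summed level of the endothelial markers, cells in which S1pr1 is well known, was 4.53 to 7.90 CPM in Il22r-/- and 3.68 to 5.39 CPM in Il22r+/+. Of 3 tested markers 2 were higher and 1 lower, beside 23.6% and 22.1% of all tested genes. The part of these markers in the receptor values was not tested. Most of the Il22r+/+ sum was Tek, the marker that fell, at 2.33 ± 0.353 CPM in Il22r-/- and 3.79 ± 0.705 CPM in Il22r+/+. The risers were Pecam1 (68 reads in Il22r-/- and 24 in Il22r+/+) and Kdr (44 and 7 reads). Of 7 listed endothelial markers, Tie1, Flt1 and Emcn had no read in Il22r+/+. The untested Cdh5 had 62 reads in Il22r-/- and 2 in Il22r+/+.

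Because neutral sphingomyelinase 2 is known for budding exosomes into multivesicular bodies, genes of exosome formation and release were listed beside the pathway. Of 23 listed, all tested, 12 fell and none rose by edgeR, beside 22.1% lower and 23.6% higher among all tested genes, with a median log2 difference of -0.28 beside 0.03 over all tested genes. At an unadjusted p under 0.05 edgeR had 14 lower and 0 higher, and the DESeq2 Wald test called 11 lower and 0 higher. With library size as the only scaling 7 fell and 2 rose, beside 2630 lower and 4595 higher of all 15227 tested genes. Without Il22r-/- replicate 3, 15 fell and 1 rose, beside 4117 lower and 4126 higher among all tested genes. Cd81, a tetraspanin of exosome membranes, was at 534.2 ± 44.9 CPM in Il22r-/- and 1093 ± 20.1 CPM in Il22r+/+ (log2 difference -1.03 ± 0.09, adjusted p = 9.41e-06). The syndecan Sdc4 was at 353.5 ± 51.7 CPM in Il22r-/- and 753.5 ± 66.2 CPM in Il22r+/+ (-1.09 ± 0.12, adjusted p = 3.91e-05). Chmp4c, a membrane-cutting ESCRT-III subunit, fell 1.76-fold. Rab27a, a GTPase of vesicle docking, fell 1.55-fold (adjusted p = 0.0342), a call lost without Il22r-/- replicate 1 or 3 (adjusted p = 0.0621 and 0.0644) without Il22r+/+ replicate 1, 2 or 3 (0.0755, 0.0807 and 0.0792), with the DESeq2 Wald test (0.0644), with library size as the only scaling (0.0699) and with no filter (0.0646). Vesicles were not measured here.

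**Figure D4:**
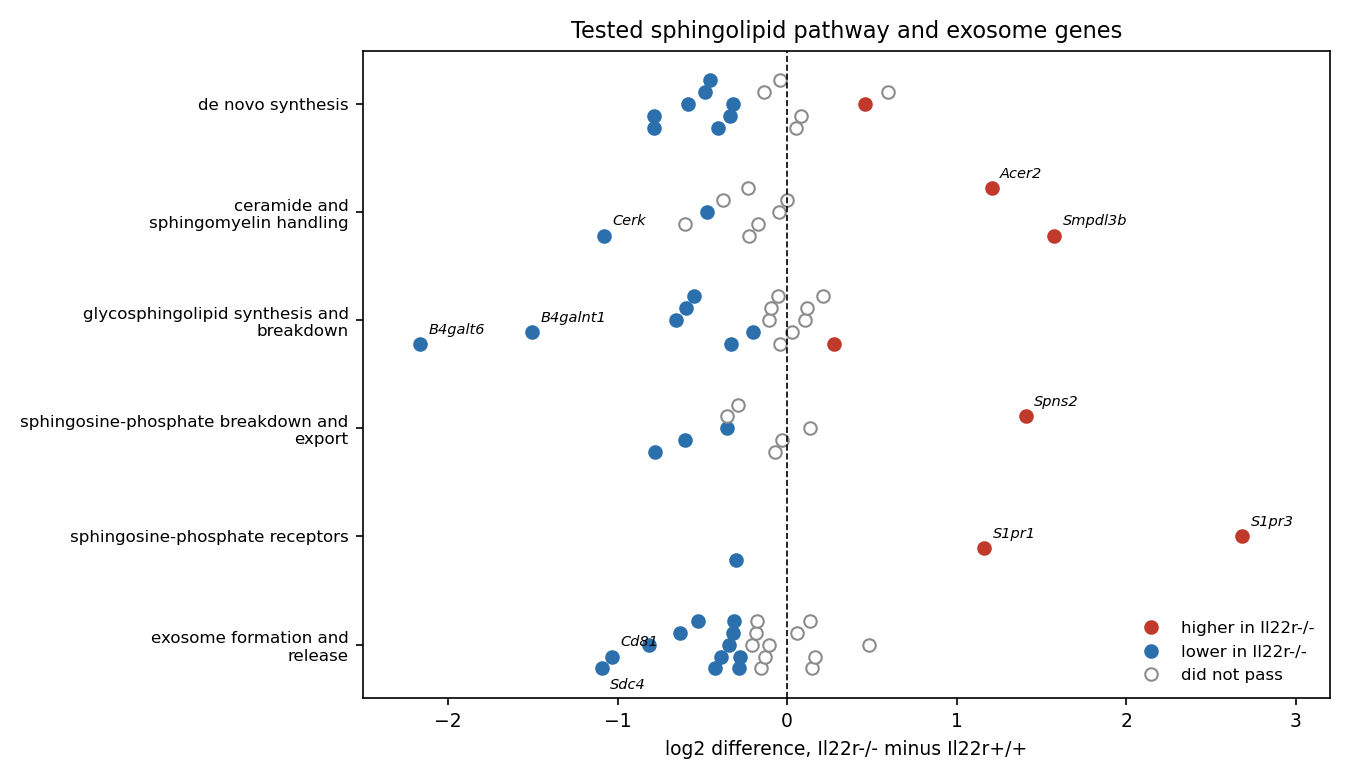
Fitted log2 difference, Il22r-/- minus Il22r+/+, of the tested genes of 5 sphingolipid groups and of exosome formation, 1 point per gene; red and blue points passed the edgeR quasi-likelihood test as higher and lower, open points did not, and vertical spread within a group only separates points. Names are given for changes of at least 2-fold, from B4galt6 at -2.17 to S1pr3 at 2.68.

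The transcripts most like Smpd3 over the 6 libraries were sought among 10534 other protein-coding genes averaging 5 CPM or more, by the root mean square difference between centred log2 CPM profiles. The nearest 8 were Bnc1 (0.87), Gpm6a (1.09), Upk1b (1.23), Camkv (1.34), Msln (1.40), Tmem108 (1.42), Col6a2 (1.56) and Dcn (1.61). The likeness rests on the genotype split that chose Smpd3 and is a description. Bnc1, a zinc-finger transcription factor, had 1.16, 0.480 and 0.394 CPM in Il22r-/- and 44.4, 48.6 and 43.6 CPM in Il22r+/+. Without Il22r-/- replicate 1 its log2 difference was -6.67 instead of -6.02, and that of Camkv was -6.83 instead of -5.93 without Il22r-/- replicate 2. Gpm6a, a membrane glycoprotein gene, had 6.46, 7.31 and 10.4 CPM in Il22r-/- and 393.3, 375.9 and 392.4 CPM in Il22r+/+. Even the nearest profile fell short of Smpd3, whose centred values lie outside those of all 8 in every Il22r+/+ library and in Il22r-/- replicates 2 and 3.

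**Figure D5:**
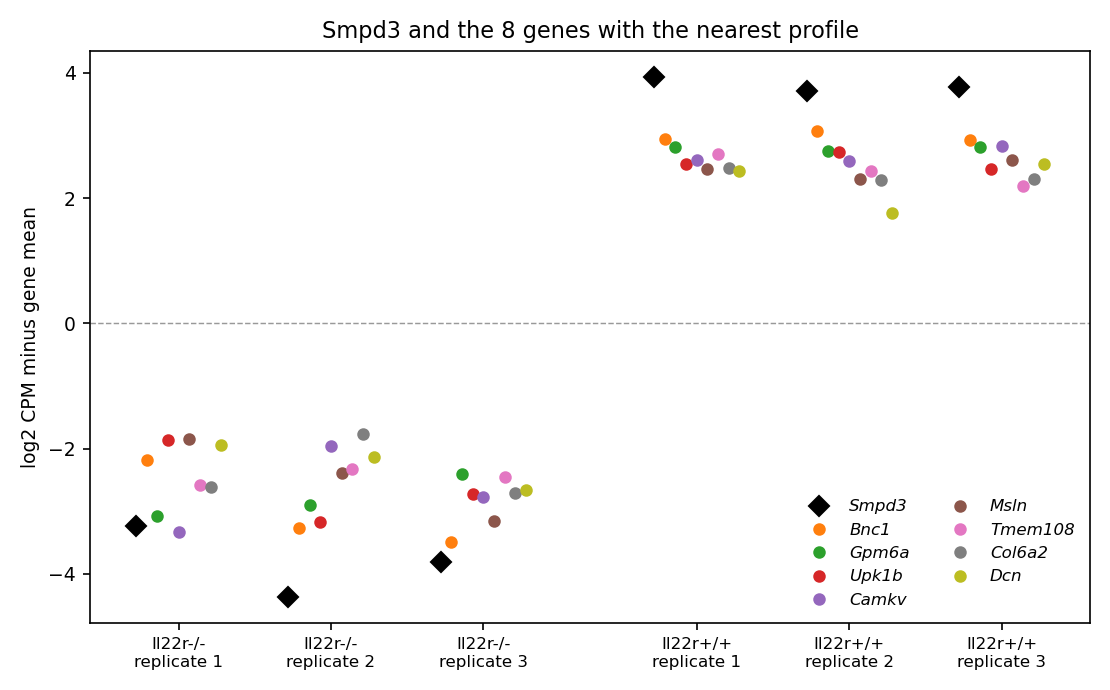
Log2 CPM minus the gene's mean over the 6 libraries for Smpd3 (black diamonds) and the 8 genes nearest to it (coloured points), Il22r-/- libraries left and Il22r+/+ libraries right; points are set side by side only to keep them apart. Smpd3 lies between -4.37 and -3.24 in Il22r-/- and between 3.70 and 3.94 in Il22r+/+.

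Of those 8 genes, Bnc1, Gpm6a, Upk1b and Msln are on the list of mesothelial and ovarian surface markers and Dcn is on the stromal list, both drawn up with earlier results of these data known. The 12 mesothelial and surface markers summed to 26.5 to 46.0 CPM in Il22r-/- and 704.7 to 707.1 CPM in Il22r+/+; 8 of 11 tested fell and none rose by edgeR, beside 22.1% and 23.6% of all tested genes, with the same counts at an unadjusted p under 0.05 and by DESeq2. Muc16, Krt7 and Krt19, defining genes of such epithelia, did not pass and were not lower in Il22r-/-. Their log2 differences were 0.01 ± 0.60, 0.98 ± 0.53 and 0.67 ± 0.34 (SE). All 3 were scarce, at 0.984, 2.82 and 2.91 CPM in Il22r-/- and 1.00, 1.44 and 1.83 CPM in Il22r+/+, which left little room for a fall. Replicate 1 held 38 of 55, 103 of 156 and 85 of 157 of their Il22r-/- reads. Cdh1 had 2 to 8 reads in any library. The 9 stromal markers summed to 256 to 410.5 CPM in Il22r-/- and 706.4 to 727.2 CPM in Il22r+/+. Of 7 tested, 1 was higher, Col1a2 (37.9-fold), and 2 were lower, Dcn (22.7-fold) and Col3a1 (2.80-fold). The untested Tcf21 had 72 reads in Il22r-/- and 0 in Il22r+/+, and the untested Postn had 30 and 2. The 10 macrophage markers summed to 28.4 to 87.2 CPM in Il22r-/- and 8.83 to 11.6 CPM in Il22r+/+, with 9 of 9 tested higher, beside 23.6% of all tested genes. The 8 smooth muscle and pericyte markers summed to 367 to 600.0 CPM in Il22r-/- and 291 to 342 CPM in Il22r+/+, with 4 higher and 1 lower of 7 tested. The risers were Actg2 (31.4-fold), Myh11 (19.5-fold), Des (4.06-fold) and Acta2 (1.67-fold), and Notch3 fell (1.57-fold). Actg2, Myh11 and Des had few reads in Il22r+/+ (27, 36 and 24 in all), and Acta2 made up most of each sum. The 6 theca markers summed to 3833 to 4380 CPM in Il22r-/- and 5075 to 5223 CPM in Il22r+/+, nearly all of it Aldh1a1, with 2 higher and 1 lower of 3 tested and Cyp17a1 and Insl3 at 1 to 4 reads per genotype. The 8 oocyte markers summed to 0.591 to 3.05 CPM in Il22r-/- and 1.49 to 1.54 CPM in Il22r+/+. The part of these marker lists in the values of Smpd3 and of the other enzymes was not tested.

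The genes around Smpd3 were called about as often as genes at large. Within 250 kb on either side 17 genes are annotated, 12 were tested, and 4 rose, 1 fell and 7 did not pass, beside 23.6% higher and 22.1% lower among all tested genes. Their median log2 difference was -0.11. Prmt7, which overlaps the 3' end of Smpd3, rose 1.33-fold (log2 difference 0.41 ± 0.09, adjusted p = 0.00417), and the amino acid transporter gene Slc7a6, 53.8 kb away, rose 1.18-fold (adjusted p = 0.0122). Slc7a6 lost its call without Il22r+/+ replicate 2 (adjusted p = 0.0586), without Il22r+/+ replicate 3 (0.0502) and in limma on log2(FPKM + 0.1) (0.0623). The other rises were those of Slc7a6os (adjusted p = 0.0451) and the pseudogene Gm10073 (0.00933). Slc7a6os lost its call without any 1 library other than Il22r-/- replicate 3 (adjusted p from 0.0727 to 0.194). The call was also lost with the DESeq2 Wald test (0.159), DESeq2 size factors (0.0607), no filter (0.11) and the replicate block (0.0859). In limma it was lost on filtered log2(FPKM + 1) (0.0653) and on log2(FPKM + 0.1) (0.0921). Cdh3, which encodes P-cadherin, 172.9 kb away, was the gene that fell, with 13.3 ± 2.14 CPM in Il22r-/- and 43.5 ± 0.628 CPM in Il22r+/+ (-1.70 ± 0.12, adjusted p = 2.16e-06). Zfp90, at 77.3 kb the nearest tested gene on the same side as Cdh3, stood at 13.9 ± 0.963 CPM in Il22r-/- and 16.6 ± 1.14 CPM in Il22r+/+. It did not pass (adjusted p = 0.104). Dus2, Ddx28, Esrp2, Pla2g15 and 1810019D21Rik did not pass either, although 1810019D21Rik did in the 3 limma fits on FPKM (adjusted p = 0.0124 to 0.0175). Nfatc3 passed only without Il22r-/- replicate 3 (log2 difference -0.30, adjusted p = 0.00144; 0.973 at the highest among the alternatives).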

How the data were processed

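RNA of mouse granulosa cells was sequenced in 6 libraries, 3 per genotype, grouped by their titles. Per the submitters' processing notes, reads were counted with featureCounts 1.5.0-p3 on mm10; which aligner, strand setting and filters were used is not stated there. The authors deposited raw read counts per gene and FPKM values, the latter being the same counts scaled by gene length and a factor per library. That factor is not the total of counted reads. It lay above that total in Il22r-/- replicates 1 and 2 and below it in every Il22r+/+ library, and how it was set is not stated.

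Genes kept by filterByExpr (15227) were scaled with TMM factors and tested with edgeR 4.0.16 (robust glmQLFit, glmQLFTest), genotype being the only term, in R 4.3.3. P-values were adjusted by Benjamini-Hochberg over all tested genes and called under 0.05; they measure the spread between these libraries only, which may be technical, since separate animals or cultures are not stated. Simulated counts with 200 changed genes, far fewer than were called in the real data, served to check the edgeR step. They do not measure its error rate at the share of genes called here. FPKM served for levels between genes. Exon overlaps used GENCODE M21 (mm10), and neighbours and positions are those of the count table.

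The enzymes and gene lists were chosen with earlier results of these data known. Named genes were all 10 enzymes, up to 4 called genes per listed group by size of change, the 8 profiles nearest to Smpd3 (log2 CPM, prior count 2, mean of at least 5 CPM) and the tested genes within 250 kb of it.

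Alternatives were DESeq2 1.42.0, its size factors, library size alone, no filter, a filter of 50 counts in 3 libraries, limma 3.58.1 on log2(FPKM + 1) with and without the filter and on log2(FPKM + 0.1), a replicate block, and leaving out each library.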

Additional observations from a re-analysis of the deposited data

How the results depend on the processing

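Over 15 alternatives the log2 difference of Smpd3 kept its sign, from -8.04 to -5.47; it was -5.47 in limma on log2(FPKM + 1), filtered or not, where the pseudocount compresses low values, and -8.04 to -7.38 with 1 library left out. All genes called ranged from 5411 to 8243 with 1 library left out. Of the 8 tested enzymes other than Smpd3, 3 to 6 were called with 1 library left out, pathway genes 21 to 31 and exosome genes 8 to 16, each beside 5, 28 and 12. With library size alone 63.6% of all calls were higher instead of 51.6%. The uncalled Smpd2 changed sign at -0.0109 with the DESeq2 Wald test, -0.00842 with DESeq2 size factors, -0.0158 in limma on log2(FPKM + 1), filtered or not, and -0.0177 on log2(FPKM + 0.1), and it ran between -0.0531 and 0.0548 with 1 library left out; the cause was not tested. The replicate block left 6405 genes, 5 enzymes, 27 pathway genes and 10 exosome genes called, and Smpd3 at -7.66; libraries with the same number did not deviate together (correlations of -0.0406 to 0.026), so the numbers were not taken as pairs. Among named genes the block lost the calls of Rab27a (adjusted p = 0.0561) and Slc7a6os (0.0859). Of 51 named genes, 35 kept direction and call in every alternative. Depth limits Sgms2, S1pr1, S1pr3, Acer2 and Spns2, each with at most 60 reads in any library.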

Other observations

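Within Il22r-/-, replicate 1 stood highest for several scarce transcripts, genes chosen here after their values were seen. It held 34 of the 35 Sgms2 reads, the most Smpd3 (38 reads, against 16 and 20 in replicates 2 and 3), Upk1b (81, against 31 and 35), Krt7 (103, against 36 and 17) and Krt19 (85, against 38 and 34). Replicate 2 of Il22r-/- stood highest for S1pr3, S1pr1 and the summed macrophage markers (87.2 CPM, against 59.3 and 28.4 CPM in replicates 1 and 3). These are values of single libraries and were not tested.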
